A study of Mus musculus with 6 samples.

Results

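The 7 noncoding RNA rows described here belong to the Dlk1-Dio3 imprinted region of mouse chromosome 12. They are 3 box C/D small nucleolar RNAs (snoRNAs; AF357355, AF357425 and AF357426), 1 microRNA gene (Mir540) and 3 long noncoding RNAs (Meg3, Rian and Mirg), taken by name from the 23420 gene rows of each count table. The small RNA came from NIH 3T3, an established line of mouse embryo fibroblasts, and all cells had received the pEGFP-NXF3 plasmid by transfection, so the input libraries contain the bait as well. Input RNA (no antibody, 3 libraries) was compared with RNA recovered by an anti-GFP antibody (NXF3 pulldown, 3 libraries), from 3 independent experiments per the labels. Values of single libraries are listed in the order of replicates 1, 2 and 3. No pulldown from cells without the bait was analysed here, and RNA held by the antibody or beads alone cannot be told apart from RNA held by NXF3. The title of the series asks how NXF3, which belongs to the nuclear export factors, bears on the localisation of snoRNAs.

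In this region the maternal chromosome expresses Meg3, Rian and Mirg, and the paternal chromosome expresses the protein-coding genes Dlk1, Rtl1 and Dio3. Rian is the host transcript of a tandem array of box C/D snoRNAs, and Mirg of a large microRNA cluster. Most box C/D snoRNAs guide ribose methylation of ribosomal RNA, whereas the imprinted ones have no known ribosomal RNA target. Expression of the region is high in embryo and brain.

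The snoRNA sequences are shown because they carry the C and D boxes that define this class and because AF357355 resembles other snoRNAs of the array. Capitals mark the first TGATGA (C box) and the last CTGA (D box) on the transcript strand, written in DNA letters as in GENCODE M21 (GRCm38).
AF357355: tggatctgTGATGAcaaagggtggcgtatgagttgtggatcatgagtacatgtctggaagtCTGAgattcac
AF357425: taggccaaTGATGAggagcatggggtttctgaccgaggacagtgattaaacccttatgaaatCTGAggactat
DQ267100: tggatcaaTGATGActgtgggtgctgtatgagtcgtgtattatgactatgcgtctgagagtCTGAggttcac
AF357355 was matched to its GENCODE entry through its RefSeq accession. DQ267100 is the most abundant snoRNA row of the region and is not one of the 7. Of the 7 snoRNA rows in the region, 5 had a sequence here, and all 5 hold TGATGA in their first 15 bases and CTGA in their last 15. The same holds for 68.7% of the 278 GENCODE snoRNA transcripts of 65 to 80 bases. AF357355 is identical to DQ267100 at 55 of 72 aligned positions (76.4%) and to DQ267102 at 58 of 72 (80.6%). AF357425 is identical to AF357355 at 39 of 74 (52.7%).

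For Mir540 the mature RNAs of both arms (23 and 20 nucleotides) and the hairpin precursor (67 nucleotides) are shown, since the count row does not say whether its reads came from an arm or from the precursor. Sequences are from RefSeq (GRCm38.p6, plus strand of chromosome 12). Capitals mark the seed, bases 2 to 8, in each arm, and the arms in the hairpin.
mmu-miR-540-5p: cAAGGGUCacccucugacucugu
mmu-miR-540-3p: aGGUCAGAggucgauccugg
Mir540 hairpin: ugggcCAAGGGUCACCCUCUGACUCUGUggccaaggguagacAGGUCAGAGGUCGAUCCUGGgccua
The seed of the 5p arm occurs in none of the other mature names of the RefSeq table, and the seed of the 3p arm occurs in 1 other.

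The shallowest library, pulldown 1, held 769570 gene counts and the deepest, pulldown 2, held 6946284, with scaling factors by the trimmed mean of M values (TMM) from 0.609 in pulldown 2 to 1.95 in pulldown 1. Levels are given as CPM, counts scaled to 1000000 gene counts after TMM, unless stated otherwise. They are relative to the other RNA of a library, and the amount of RNA recovered is not known. A gel selected amplified products between 30 and 375 nucleotides, and the labels do not say whether this length includes the adapters. Reads of Meg3, Rian and Mirg thus come from pieces of these RNAs or from small RNAs inside them. The transcript of the bait, Nxf3, ranged over 452 to 1110 CPM among inputs and 802 to 1550 CPM among pulldowns. All 12 fibroblast markers examined had reads in every library (summed level 291 to 342 CPM among inputs, 267 to 355 CPM among pulldowns). Of 6 neuronal markers, Rbfox3, Snap25, Syt1 and Tubb3 had no read, and the sum of the list reached 1.34 CPM at most. No epithelial marker had a read, and of 4 leukocyte markers Ptprc, Lyz2 and Cd3e were at 0.

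None of the 7 RNAs was called higher or lower in the pulldown. The edgeR quasi-likelihood test, with an adjusted p under 0.05 over all 1852 genes that passed the filter on low counts, called 0% of genes higher and 0.0540% lower. Of the 7, 6 passed that filter and Mirg did not. Their log2 folds were positive for 2 and negative for 4, with a median of -0.22, beside a median of 0 over all tested genes. At an unadjusted p under 0.05, 1 of the 6 was lower (Mir540), beside 3.35% of all tested genes, and 0 were higher, beside 2.27%. DESeq2 and limma-voom, run on the same 1852 genes, called none of the 6 either. Over all these genes DESeq2 called 1 higher and 1 lower, and limma-voom 0 higher and 1 lower.

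**Figure D1:**
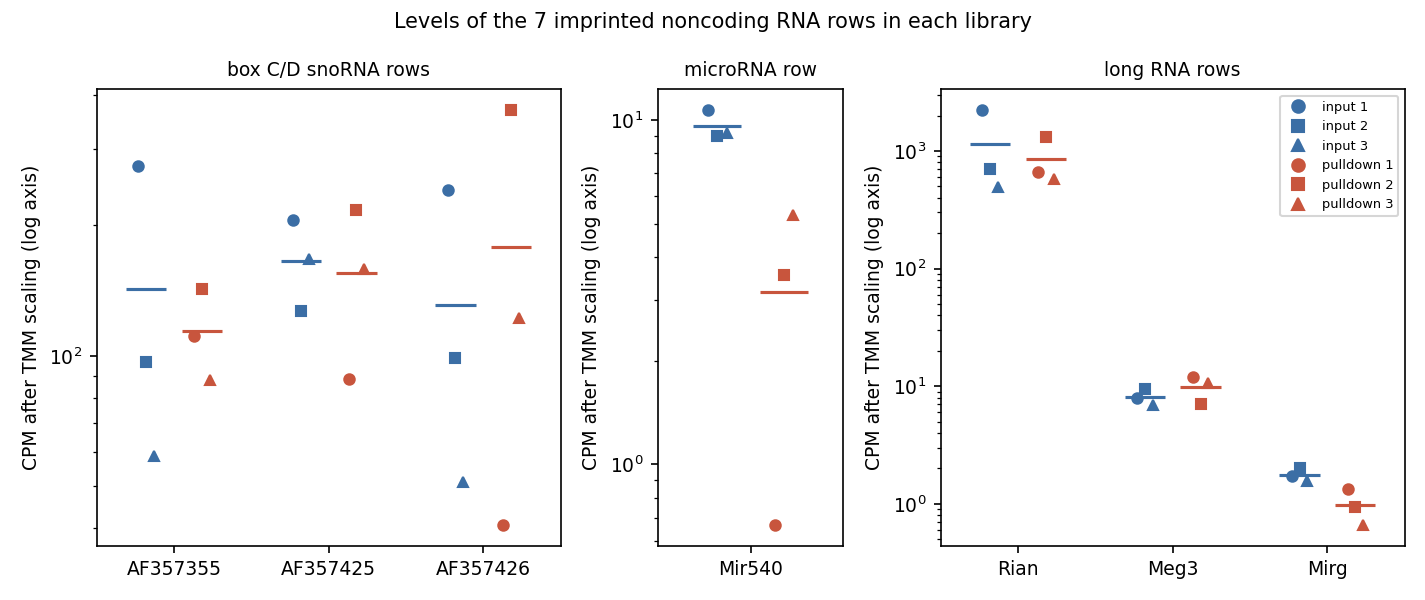
CPM after TMM scaling (log axes, one per RNA class) for each of the 7 rows in the 3 input (blue) and 3 pulldown (red) libraries; symbols mark the replicate number and bars the group mean. The groups overlap for the 3 snoRNAs, Rian and Meg3, while all pulldown values of Mir540 lie under its input values. The same holds for Mirg, which had only 2 to 7 reads per library. Of all tested genes, 6.16% had every pulldown value under every input value.

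The 3 snoRNAs were present in every library with 61 to 1565 reads each. AF357355 had 274, 96.9 and 58.8 CPM in the inputs and 111, 143 and 88.0 CPM in the pulldowns. With TMM the pulldown values lay inside the input range, and input 1 was the highest library. With total-count scaling AF357355 was highest in pulldown 1, at a log2 CPM of 7.76 against 7.69 in input 1. Its log2 fold of pulldown over input was -0.33 (SE 0.55, 95% interval -1.51 to 0.85; edgeR, adjusted p = 0.984); it was 0.57 without input 1 and 0.02 with total-count scaling.

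AF357425 varied least of the 3. It had 206, 127 and 167 CPM in the inputs and 88.6, 217 and 159 CPM in the pulldowns. With TMM, pulldown 1 was the lowest library and pulldown 2 the highest, so the input range lay within that of the pulldown. With total-count scaling pulldown 2 was the lowest (log2 CPM 7.05) and input 3 the highest (7.57). The log2 fold was -0.10 (SE 0.47, 95% interval -1.11 to 0.91; edgeR, adjusted p = 0.995), with 0.10 without input 1 and 0.18 without pulldown 1.

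AF357426 varied most. It had 242, 98.9 and 51.2 CPM in the inputs and 40.7, 370 and 122 CPM in the pulldowns. With TMM the lowest and the highest of the 6 libraries were both pulldowns. With total-count scaling the lowest was input 3, at a log2 CPM of 5.88 against 6.32 in pulldown 1. The log2 fold was 0.45 (SE 0.72, 95% interval -1.11 to 2.01; edgeR, adjusted p = 0.975), and its sign rested on pulldown 2, without which it was -0.69. Limma-voom gave -0.10, and without input 1 the edgeR value was 1.29.

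The RefSeq lengths of the 3 snoRNAs are 67 to 71 nucleotides, and levels are also given per nucleotide of that length. The GENCODE sequences shown above are slightly longer, 72 bases for AF357355 and 73 for AF357425. Whether reads scale with length was not tested. In input, AF357425 had 2.41 ± 0.572 CPM per nucleotide, AF357355 2.02 ± 1.62 and AF357426 1.95 ± 1.48 (SD, n = 3 libraries). In the pulldown the order was AF357426 at 2.65 ± 2.56, AF357425 at 2.24 ± 0.931 and AF357355 at 1.60 ± 0.391. No neighbours in either order differed beyond their spread. DQ267100 reached 17.3 ± 14.1 in input and 10.5 ± 7.83 in the pulldown, and DQ267102 5.55 ± 2.46 and 4.56 ± 1.44.

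As a class, the 3 snoRNAs made up 0.0544%, 0.0343% and 0.0316% of gene counts in the inputs and 0.0468%, 0.0444% and 0.0341% in the pulldowns. The input mean was 0.0401% ± 0.0125 and the pulldown mean 0.0418% ± 0.00676 (SD, n = 3 libraries). They lay 0.00169 percentage points apart, less than the SD of either group (two-sided exact permutation p = 0.9; with 3 libraries against 3 it cannot go below 0.1). The exact 95% interval (Clopper-Pearson) of input 1, 0.0521% to 0.0568%, lay above that of input 3, 0.0298% to 0.0334%. Such intervals hold counting error alone, since PCR copies of 1 molecule are counted as separate reads.

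Set against the 74 rows named Snord, which hold most other box C/D snoRNAs and took 69.6% to 81.7% of gene counts, the 3 imprinted snoRNAs were at nearly the same ratio in both kinds of library. The log2 ratio of their summed counts to the Snord sum was -10.50, -11.04 and -11.34 in the inputs and -10.54, -10.82 and -11.15 in the pulldowns. The pulldown values lay inside the input range. The difference of 0.12 was within the spread (two-sided exact permutation p = 0.8), and it was -0.03 without pulldown 1 and -0.07 without input 3. With all 7 snoRNA rows of the region it was -0.29 (p = 0.6 by the same exact test).

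Within a library the 3 snoRNAs did not keep constant proportions. The log2 ratio of AF357426 to AF357355 was -0.18, 0.03 and -0.20 in inputs 1 to 3, close together. In the pulldowns it was -1.44, 1.37 and 0.48, so that 1 pulldown lay under all inputs and the other two above them. In read counts, AF357426 had 0.367, 2.59 and 1.39 reads per read of AF357355 in the pulldowns. The group means differed by 0.25 (two-sided exact permutation p = 0.7, adjusted p = 1 over the 3 snoRNA pairs). The difference was 1.04 without pulldown 1 and -0.36 without pulldown 2.

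Ratios with AF357425 were spread in both groups. The log2 ratio of AF357426 to AF357425 averaged -0.61 ± 0.99 over inputs and -0.24 ± 0.95 over pulldowns, and that of AF357425 to AF357355 averaged 0.49 ± 0.96 and 0.38 ± 0.62 (SD, n = 3 libraries). Both differences had an adjusted p of 1 by the exact permutation test over the 3 pairs. AF357425 took 60.2% of the reads of the 3 snoRNAs in input 3 (exact 95% interval 57.4% to 63.0%) but 28.5% in input 1 (26.6% to 30.5%). AF357426 took 50.7% in pulldown 2 (48.9% to 52.5%) and 16.9% in pulldown 1 (13.2% to 21.2%).

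**Figure D2:**
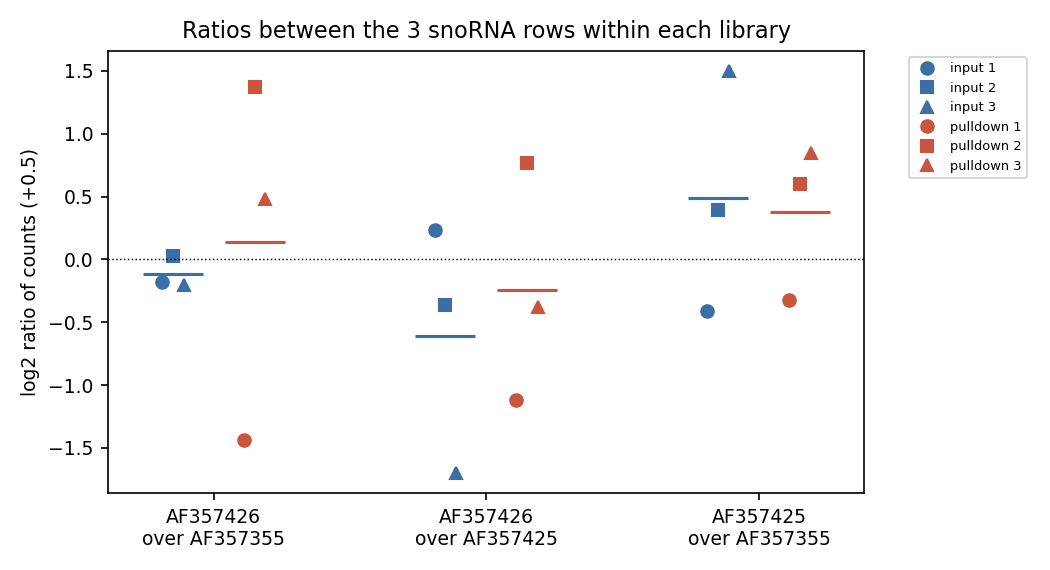
Log2 ratio of read counts, with 0.5 added to each, for each pair of the 3 snoRNA rows in the 3 input (blue) and 3 pulldown (red) libraries; bars are group means. For AF357426 over AF357355 the inputs lie between -0.20 and 0.03 and the pulldowns between -1.44 and 1.37.

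Mir540, a microRNA gene that lies between Meg3 and Rian, was the member with the lowest p. It had 31, 18 and 41 reads in the inputs and 1, 15 and 16 reads in the pulldowns, or 10.7, 8.99 and 9.13 CPM and 0.667, 3.55 and 5.29 CPM. Every pulldown value was under every input value. Among the 6 tested members this held for Mir540 alone, beside 6.16% of all tested genes, and 0 had every pulldown value above every input value, beside 4.27%. The input mean was 9.62 ± 0.972 CPM and the pulldown mean 3.17 ± 2.34 CPM (SD, n = 3 libraries). The log2 fold was -1.42 (SE 0.39, 95% interval -2.26 to -0.59, unadjusted p = 0.00262), a 2.68-fold lower level that did not pass adjustment (adjusted p = 0.36, edgeR quasi-likelihood test). By p it stood 12th of the 1852 tested genes and 9th of those with a negative fold.

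The value of Mir540 in pulldown 1 rests on a single read, under the 3 counts that a count of 0 allows. Without that library the log2 fold was -1.14 (adjusted p = 0.267, edgeR). Over the 12 alternatives that tested it, the log2 fold ran from -1.83 to -1.14, with adjusted p from 0.0951 (edgeR without a filter) to 1. As a share of gene counts, which uses no scaling factor, Mir540 averaged 0.000936% ± 0.000117 over inputs and 0.000278% ± 0.000187 over pulldowns (SD, n = 3 libraries; two-sided exact permutation p = 0.1, the smallest possible).

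The other 4 microRNA rows of the region that were tested had positive log2 folds, beside 49.5% of all tested genes. The region holds 57 microRNA rows in the tables, 34 of which had a read and 5 of which were tested. Besides Mir540 these were Mir341 (log2 fold 1.14, SE 0.48, adjusted p = 0.825), Mir409 (1.03, SE 0.56, adjusted p = 0.855), Mir541 (0.95, SE 0.71, adjusted p = 0.96) and Mir411 (0.31, SE 0.60, adjusted p = 0.992), all by edgeR. None passed. Mir541, the most abundant, had 17.3, 17.0 and 49.2 CPM in the inputs and 4.67, 88.7 and 67.8 CPM in the pulldowns, so its groups overlapped. In pulldown 1 all 4 rows lay under every input in CPM after TMM, with 2 reads of Mir341, 2 of Mir409, 0 of Mir411 and 7 of Mir541. The counts of Mir341, Mir409 and Mir411 there are under the 3 counts that a count of 0 allows, so their order against the inputs is uncertain. With this scaling the positive folds rest on the other pulldowns.

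Of all reads on these 57 rows, Mir540 took 22.5%, 20.0% and 10.1% in the inputs and 4.55%, 2.39% and 4.37% in the pulldowns. Mir541 alone took from 31.8% of them in pulldown 1 to 59.8% in pulldown 2, so the share of Mir540 also depends on Mir541. The exact 95% intervals were 7.38% to 13.5% in input 3 and 1.35% to 3.92% in pulldown 2, and the interval of pulldown 1, from 0.115% to 22.8%, overlapped those of all inputs. The share of Mir540 was computed after its counts were seen, and it was not tested. The summed reads of the other 56 rows varied between libraries, from 21 in pulldown 1 to 612 in pulldown 2. As a share of gene counts they averaged 0.00528% ± 0.00345 over inputs and 0.00741% ± 0.00416 over pulldowns (SD, n = 3 libraries; two-sided exact permutation p = 0.7).

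**Figure D3:**
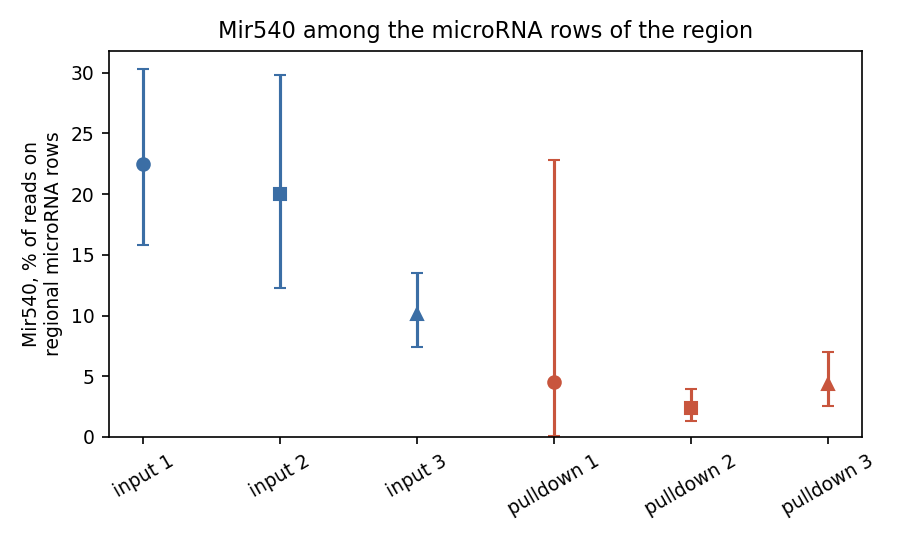
Mir540 reads as a percentage of the reads on all 57 microRNA rows of the region in each library; error bars are exact 95% binomial intervals and cover counting error only. The inputs lie between 10.1% and 22.5% and the pulldowns between 2.39% and 4.55%.

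**Figure D4:**
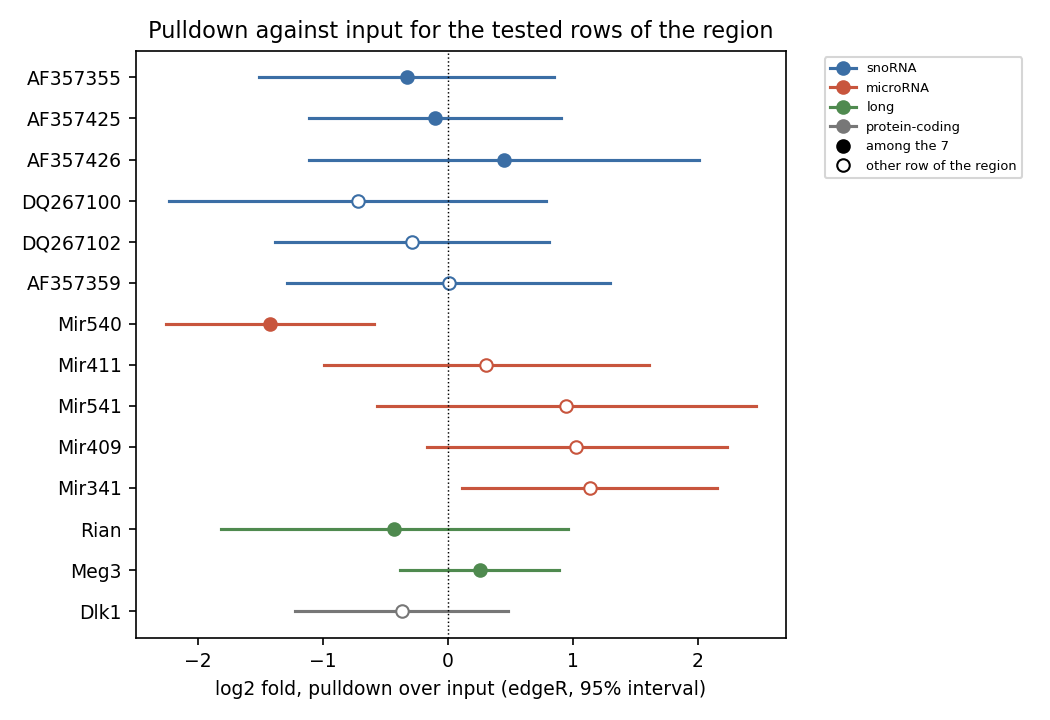
Log2 fold of pulldown over input with its unadjusted 95% interval (edgeR) for the 14 rows of the region that passed the filter; filled symbols are members of the 7 and open symbols other rows, coloured by RNA class. The intervals of Mir540 (-2.26 to -0.59) and Mir341 (0.11 to 2.16) exclude 0, and no row passed adjustment over all genes.

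Among the long RNAs, Rian held most of the reads. It had 6474, 1408 and 2200 reads in the inputs and 998, 5520 and 1759 in the pulldowns, or 2240, 704 and 490 CPM and 665, 1310 and 582 CPM. The groups overlapped and input 1 was again the highest library. The log2 fold was -0.43 (SE 0.65, 95% interval -1.82 to 0.96; edgeR, adjusted p = 0.968), and 0.54 without input 1. By RefSeq positions all 7 snoRNA rows lie within the span of Rian. Of these, 5, with AF357355, AF357425 and DQ267100 among them, lie inside an exon of at least 1 of its 20 GENCODE transcripts. The sources used here do not say how reads of such a snoRNA were assigned. The count of Rian may include them and is uncertain as a measure of the long RNA.

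The count of Rian was close to that of DQ267100 in 5 of the 6 libraries. It had 0.942, 1.01 and 0.808 reads per read of DQ267100 in the inputs and 2.23, 0.955 and 1.02 in the pulldowns, where pulldown 1 stood apart. Per read of AF357355, Rian had 8.18, 7.26 and 8.33 reads in the inputs and 6.01, 9.12 and 6.61 in the pulldowns.

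Meg3, a long RNA of the maternal chromosome studied for growth suppression, was sparse in these libraries. It had 23, 19 and 31 reads in the inputs and 18, 30 and 32 in the pulldowns, with an input mean of 8.12 ± 1.30 CPM and a pulldown mean of 9.89 ± 2.52 CPM (SD, n = 3 libraries). The groups overlapped, and the log2 fold was 0.26 (SE 0.29, 95% interval -0.38 to 0.89; edgeR, adjusted p = 0.968). Mirg, the host of the microRNA cluster, had 5, 4 and 7 reads in the inputs and 2, 4 and 2 in the pulldowns. Its CPM values did not overlap between groups and were lower in every pulldown. This held for 6.16% of the tested genes, among which Mirg was not. The share of gene counts of Mirg did overlap, with pulldown 1 the highest library at 0.00026% (exact 95% interval 3.15e-05% to 0.000939%). A difference in Mirg was not detectable at this depth.

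Covariation over the 6 libraries was computed for the 15 pairs of the 6 tested members on log2 CPM. AF357355 and Rian had Pearson's r = 0.96 (exact permutation p = 0.00278, adjusted p = 0.0417 over the 15 pairs, n = 6) and Spearman's rho = 0.94 (exact permutation p = 0.0167, adjusted p = 0.251). Leaving out inputs 1 and 3, the libraries farthest from the median of AF357355, gave r = 0.93. With total-count scaling r was 0.95, and no pair then passed adjustment. With both RNAs set against the Snord sum of the library, r was 0.96 (exact permutation p = 0.00972, adjusted p = 0.146). AF357355 lies inside a Rian exon in the GENCODE models, and whether the rows hold reads of the same RNA was not tested. Input and pulldown of 1 experiment may share cells, which would make the libraries less than independent.

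AF357425 and AF357426 gave r = 0.81 with TMM (exact permutation p = 0.0472, adjusted p = 0.243, n = 6) and rho = 0.83 (exact permutation p = 0.0583, adjusted p = 0.437). The sign of this relation changed with the scaling, to r = -0.76 with total counts and to -0.79 against the Snord sum (exact permutation p = 0.0583, adjusted p = 0.437). Leaving out pulldowns 1 and 2 gave r = 0.50. AF357425 and Meg3 gave r = -0.81 with TMM (exact permutation p = 0.0486, adjusted p = 0.243) and 0.42 with total counts. AF357355 and AF357426 gave r = 0.67 with TMM (exact permutation p = 0.143, adjusted p = 0.426) and 0.18 with total counts. AF357355 and AF357425 gave r = 0.37 (exact permutation p = 0.464, adjusted p = 0.674). AF357426 and Rian gave r = 0.78 with TMM (exact permutation p = 0.0736, adjusted p = 0.276), 0.88 without pulldowns 1 and 2, and 0.36 with total counts. Each of the pairs other than AF357355 with Rian missed the threshold after adjustment. With TMM, Rian also had r = 0.87 with DQ267100, 0.83 with DQ267102 and 0.86 with AF357359, snoRNA rows of the array outside the 7, given as a description over the 6 libraries.

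**Figure D5:**
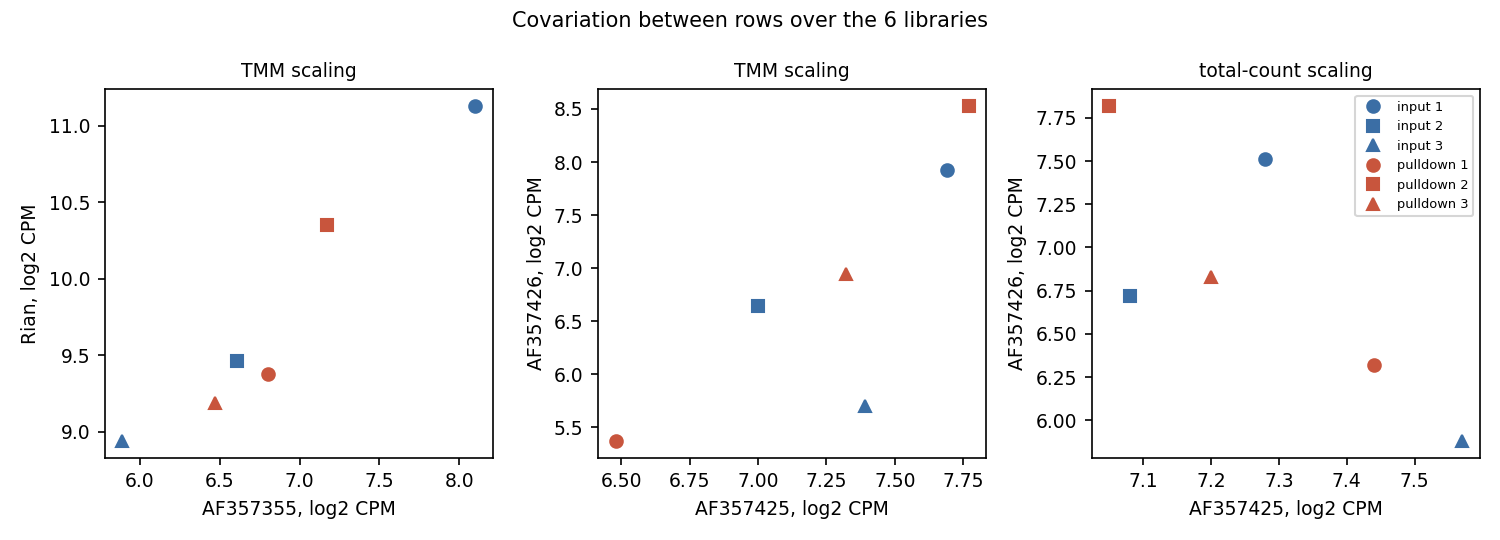
Log2 CPM of pairs of rows in the 6 libraries (input blue, pulldown red, symbols mark the replicate number), with TMM scaling in the left and middle panels and total-count scaling on the right. Rian follows AF357355 (r = 0.96), and the slope between AF357425 and AF357426 turns from r = 0.81 to r = -0.76 with the scaling.

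The genes with the most similar pattern were sought among the 1492 tested genes that averaged 10 counts or more, by Pearson's r over the 6 libraries, as a description. For AF357426 these were the box C/D snoRNAs Snord4a (r = 0.993), Snord52 (r = 0.992) and Snord11 (r = 0.986). Snord52, for example, had 5900, 2500 and 1230 CPM in the inputs and 733, 11400 and 3650 CPM in the pulldowns, with the same lowest and highest libraries as AF357426. For AF357425 they were the mRNA genes Dnm1l, of a mitochondrial fission GTPase (r = 0.999), and Naa50, of an acetyltransferase subunit (r = 0.963), and the snoRNA Snord1b (r = 0.968). Dnm1l was near the floor, from 2 CPM in pulldown 1 to 5.2 CPM in pulldown 2. The log2 CPM of AF357425 ran from 6.48 to 7.77 with TMM, but only from 7.05 to 7.57 with total-count scaling. Its pattern here thus depends largely on the scaling factors. For AF357355 they were the cyclin gene Ccnd2 (r = 0.955), Sh3d19 (r = 0.94) and the snoRNA Snord57 (r = 0.93). Among the other snoRNAs of the array, r with DQ267100 was 0.74 for AF357355 and 0.86 for both AF357425 and AF357426, and r of AF357426 with AF357359 was 0.97. All these rows share library depth and scaling factors.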

How the data were processed

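Small RNA libraries of NIH 3T3 cells were deposited as 1 table per library of raw read counts per gene symbol. Per the labels' protocols they were made with the TruSeq small RNA kit and 14 PCR cycles. The submitters' processing notes name Bowtie, Partek and mm9, and per the file headers and names rRNA reads were removed and reads counted with HTSeq-count. The sources used here give no versions, counting mode, strand setting or annotation. The summary lines, 64.4% to 77.8% of each table's reads, belong to no gene and entered neither gene counts nor tests.

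Samples were grouped by title. EdgeR 4.0.16 (R 4.3.3; TMM, filterByExpr with minimum count 10, quasi-likelihood test, all 6 libraries) was fitted to the whole table, p-values being adjusted by Benjamini-Hochberg (threshold 0.05). The fit was tested on counts simulated with the gene means and dispersions of these libraries. The simulated log2 folds were 2 in either direction, larger than any fold of the 6 tested members. That test does not show whether folds of the size seen here would be called. SE and intervals come from the F statistic. Shares and ratios were compared with exact permutation tests (scipy 1.17.1). Correlations used log2 CPM with prior count 2. The alternatives were limma 3.58.1, DESeq2 1.42.0, other scalings and filters, a replicate block and leaving out libraries. The region, from Dlk1 to Dio3, was taken from gene order in RefSeq GRCm38.p6. That build differs from the build of the files, so no coordinates are given. AF357426 has no sequence here.

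The rule for named genes took the 7 members, rows of the region with at least 10 reads in all, and the 3 genes most correlated with each tested snoRNA. The members and lists were chosen with earlier results of these data known. The labels speak of independent experiments, and p-values measure the spread between these libraries.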

Additional observations from a re-analysis of the deposited data

How the results depend on the processing

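No alternative called any of the 7 RNAs in either direction, but not every alternative tested all 7. Mirg failed the filter of the main fit, and Mir540 and Meg3 were left out where a mean of at least 50 counts was required. Of 76 refits of the log2 folds of the 6 tested RNAs, 69 kept the sign and 7 reversed it, and Mir540 and Meg3 kept theirs in all 12 refits each. Total-count scaling gave 0.02 for AF357355 and limma-voom -0.10 for AF357426. Leaving out single libraries gave -0.71 to 0.57 for AF357355, -0.44 to 0.18 for AF357425, -0.69 to 1.29 for AF357426, -0.90 to 0.54 for Rian and -1.83 to -1.14 for Mir540. For the share of gene counts in the 3 snoRNAs (0.00169 points), leaving out single libraries gave -0.00257 to 0.00884. For their log2 ratio to the Snord rows it gave -0.07 to 0.35, and for that of AF357426 to AF357355 -0.36 to 1.04. Counting all 7 snoRNA rows of the region, chosen after seeing the data, gave -0.0452 points and a log2 ratio of -0.29. The count of covarying pairs past the threshold, 1, became 0 with total-count scaling; the cause was not tested. Deviations of same-numbered libraries correlated weakly (r = 0.03, 0.07 and 0.14 for numbers 1 to 3; -0.10 to 0.03 for other numbers), and each library correlated best with its own number, input 1 equally with pulldowns 1 and 2. Whether a number marks 1 experiment is not stated in the labels, and the libraries were not treated as pairs. With the replicate block the share differed by 0.00169 points (exact sign-flip p = 0.75), the ratio to Snord rows by 0.12 (p = 0.5, exact) and that of AF357426 to AF357355 by 0.25 (p = 0.75, exact), and edgeR called 1 gene higher and 3 lower, none among the 7. Over all genes the other settings called 0 to 7 genes higher and 0 to 9 lower. At the depth of pulldown 1, 3 counts correspond to 0.00039% of gene counts, which limits Mir540 and Mirg there.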

Other observations

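Of the protein-coding genes of the region, Dlk1, the paternally expressed gene at one end, averaged 11.9 ± 7.45 CPM over inputs and 9.47 ± 2.23 CPM over pulldowns (SD, n = 3 libraries; edgeR log2 fold -0.37, SE 0.39, adjusted p = 0.968). Rtl1, a paternally expressed retrotransposon-derived gene, had 16 reads in all 6 libraries together, and Dio3, a deiodinase gene at the other end, had none. DQ267101 had 27 reads in all, although DQ267100 and DQ267102, its relatives in the array, had 18943 and 6702.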
